A study of Homo sapiens with 7 samples.

Results

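The selective autophagy cargo receptors described here are 7 human genes, SQSTM1, NBR1, OPTN, CALCOCO2, TAX1BP1, TOLLIP and WDFY3, measured in bafilomycin A1-treated cells. They were chosen by name: every non-control spot of the arrays whose gene name equals one of these symbols was taken, which gave 10 probes of 50599 and 7 gene names of 36337. Each of these 10 probes was printed as 1 spot per array.

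Receptors of this kind bind a cargo, often one tagged with ubiquitin, and at the same time an ATG8 protein on the growing autophagosome membrane, so that the cargo is enclosed and carried to the lysosome. SQSTM1 (p62), NBR1, OPTN (optineurin), CALCOCO2 (NDP52), TAX1BP1 and TOLLIP bind ubiquitin, while WDFY3 (ALFY) is a large scaffold that joins SQSTM1 bodies to the autophagy machinery and binds the lipid PI3P. The receptors are degraded together with their cargo, and SQSTM1 protein is therefore widely used as a readout of autophagic flux. The arrays measured RNA, not protein.

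The series compared the transcriptomes of human cells with extra chromosomes with those of cells under other stresses, among them an arm treated with bafilomycin A1, an inhibitor of the vacuolar proton pump that acidifies lysosomes and that blocks the last steps of autophagy. The cells were HCT116, a near-diploid human colon cancer line, in a derivative that carries the histone fusion H2B-GFP and is labelled diploid. The 4 replicate samples shared the same treatment, 10 nM bafilomycin A1 for 30 h, and each was hybridised to 1 single-colour array, with 100 ng of total RNA per labelling reaction. Samples of untreated cells, 3 by the labels, were not analysed here. No value below is therefore a fold change of treated over untreated cells, and no difference between groups was tested or given a p-value.

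According to the labels the cells were grown in medium with 10% serum at 5% CO2; the methods give 5% serum. The labels number the 4 samples as replicates without saying whether they came from separate cultures. They are called replicates 1 to 4, and their order carries no meaning. All 4 arrays lay on 1 slide with 1 scan time, so neither could be tested as a batch. Each array held 58717 non-control spots, of which between 55.6% and 60.4% were well above background and between 514 and 2249, the most on replicate 3, were marked as outliers by the scanner software. None of the member spots was marked as an outlier (0 spots), and none was saturated (0 spots). The epithelial markers of the cell line were present, with 8 of 9 detected on all 4 arrays; VIL1 was at background throughout. Of the markers of other cell types, 1 of 7 for fibroblasts, 2 of 5 for endothelium and 5 of 7 for leukocytes were detected by the same rule. The rule was passed by 52.5% of all gene names, so a detected marker alone does not show that its cell type was present.

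The 10 probes are 60-base oligonucleotides, and their sequences are shown because the base composition of each probe is set beside its values further on. For 9 of them the first 30 bases are printed, 5′ to 3′ and in the sense of the transcript, with single-base runs of at least 5 bases in capitals. Positions are those the array design gives on GRCh37 for the whole probe. The annotation of exons and untranslated regions for this build was not used here.
SQSTM1: ggttagggtgcaagaagccatttagggcag
NBR1 probe 1: agagcttgtccatgaacccaggttctcact
NBR1 probe 2: tgtcattccttcatctggccAAAAAAtgct
OPTN: aacactggaccagctgtaaaagtaaacagt
CALCOCO2: tcactacagagacttccacAAAAActtttg
TOLLIP probe 1: ccagggtgttggaggtggtggagcgccttc
TOLLIP probe 2: TTTTTTaatagacaaatcacattttgcaag
WDFY3 probe 1: atagcagccatccgtctggataatagcaaa
WDFY3 probe 2: tgccctcatcaatagaccatgtaactacat

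The SQSTM1 probe lay at chr5:179263709-179263768 on the plus strand and held 31 G or C bases of 60. NBR1 probe 1 lay at chr17:41363202-41363261 and probe 2 at chr17:41361592-41361651, both on the plus strand and both with 27 G or C bases. The design assigned probe 1 to 3 RefSeq transcripts and 1 Ensembl transcript, but probe 2 to 1 Ensembl transcript and no RefSeq transcript (0). The OPTN probe, at chr10:13180217-13180276, and the CALCOCO2 probe, at chr17:46941924-46941983, were on the plus strand with 21 G or C bases each. The TOLLIP probes were on the minus strand, probe 1 at chr11:1297892-1297951 with 32 G or C bases and probe 2 at chr11:1296221-1296280, 1671 bases further 3′ in the transcript, with 15. The WDFY3 probes, also on the minus strand, lay at chr4:85591223-85591282 with 22 G or C bases and at chr4:85730135-85730194 with 24, 138912 bases apart. WDFY3 probe 2 was assigned to 1 Ensembl transcript and no RefSeq transcript (0).

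The TAX1BP1 probe had 25 G or C bases and was placed on the plus strand at chr7:27867426-27868292. That interval is 867 bases long for a 60-base probe, so the probe joins pieces of transcript that lie apart in the genome, and it is printed in full for this reason.
TAX1BP1: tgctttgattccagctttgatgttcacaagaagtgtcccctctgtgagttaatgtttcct

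All 7 receptor genes were detected, meaning that at least 1 probe was well above background on all 4 arrays, against 52.5% of all gene names. By probe, 9 of 10 were well above background on all 4 arrays, against 48.7% of all probes, and the exception was NBR1 probe 2. Levels are given as log2 of the background-subtracted signal minus the median of the array. That median was taken over probes with a signal above 0, so a level of 0 is the middle of those probes. The middle of all probes lay lower on each array. The level of one probe is not comparable with that of another, because probes differ in affinity; differences were read for the same probe between arrays.

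**Figure D1:**
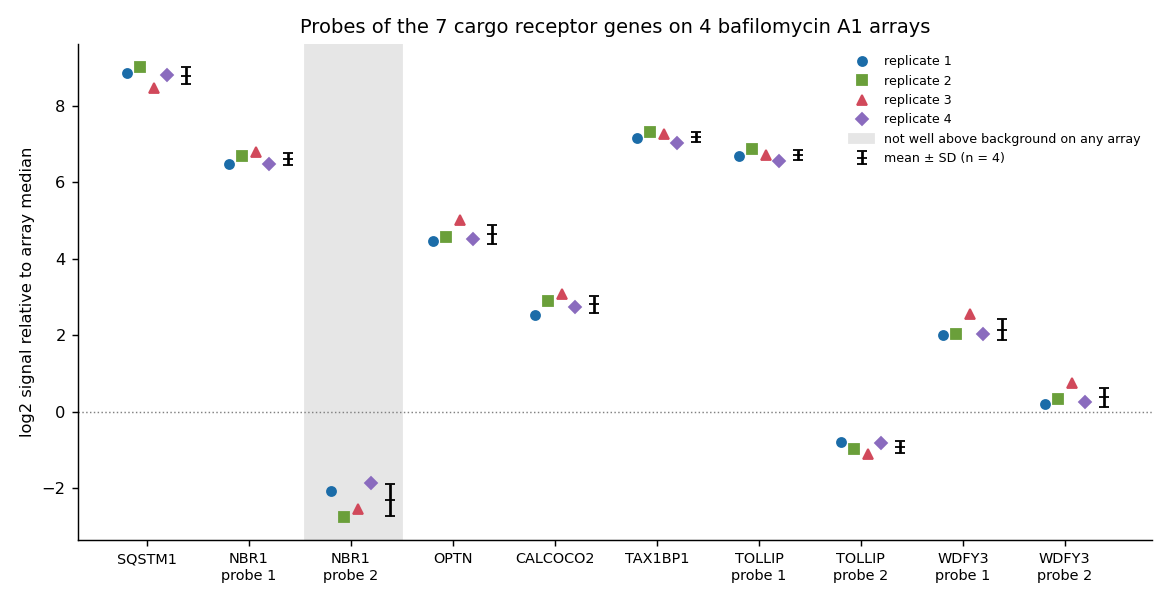
Level of each probe (vertical axis, log2 signal relative to the array median) on the 4 bafilomycin A1 arrays, with 1 symbol per replicate and the mean ± SD beside them (n = 4); the grey band marks NBR1 probe 2, which was well above background on no array. Replicate 3 is the lowest point for SQSTM1 and the highest for OPTN, CALCOCO2 and both WDFY3 probes.

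SQSTM1, the p62 receptor that gathers ubiquitylated proteins into bodies and also holds KEAP1, was well above background on every array. Its background-subtracted signal was 36058, 36800, 25167 and 28488 on replicates 1 to 4. Relative to the array median this was 8.87, 9.04, 8.49 and 8.81, a mean of 8.80 ± 0.23 (SD, n = 4). Replicates 1, 2 and 4 lay close together and replicate 3 lay below them. The highest and the lowest array differed by 1.46-fold, and by 1.17-fold without replicate 3.

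NBR1 shares the domain plan of SQSTM1 and takes part in the clearance of protein aggregates and peroxisomes. NBR1 probe 1 gave 6.49, 6.68, 6.80 and 6.50 on replicates 1 to 4, a mean of 6.62 ± 0.15 (SD, n = 4). The 4 arrays spanned 1.24-fold, with replicates 2 and 3 above replicates 1 and 4. NBR1 probe 2 was not well above background on any array, with signals of 18.1, 10.3, 12.1 and 17.4 and an error estimated by the scanner software of 25.8% to 42.8% of the signal. The median over the probes of the gene, which the study's methods use, is then the mean of a well measured and an undetected probe, and it was 2.20, 1.96, 2.13 and 2.32, or 2.15 ± 0.15 (SD, n = 4). The NBR1 probes deviated from their own means in opposite directions on 4 of 4 arrays, so the order of the arrays in the gene's summary, with replicate 4 highest, was not that of the detected probe, with replicate 3 highest. The SD was 0.15 either way.

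OPTN, CALCOCO2 and TAX1BP1 are the receptors best known for damaged mitochondria and for bacteria that enter the cytosol; OPTN is a substrate of the kinase TBK1, and CALCOCO2 recognises broken vacuoles through galectin-8. The OPTN probe gave 4.46, 4.58, 5.01 and 4.51 on replicates 1 to 4, a mean of 4.64 ± 0.25 (SD, n = 4). Replicates 1, 2 and 4 spanned 1.09-fold, and replicate 3 brought the span to 1.47-fold.

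The CALCOCO2 probe gave 2.54, 2.88, 3.08 and 2.74, a mean of 2.81 ± 0.23 (SD, n = 4). Here replicate 1 was low as well as replicate 3 high, and the span of 1.46-fold came down to 1.27-fold without replicate 3. TAX1BP1, a paralog of CALCOCO2, differed less between arrays. Its probe gave 7.17, 7.32, 7.28 and 7.03, a mean of 7.20 ± 0.13 (SD, n = 4) and a span of 1.23-fold, with replicate 4 lowest.

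TOLLIP is an endosomal adaptor that was described first in Toll-like receptor signalling and that carries a ubiquitin-binding CUE domain. TOLLIP probe 1 gave 6.70, 6.88, 6.72 and 6.57, a mean of 6.72 ± 0.13 (SD, n = 4). TOLLIP probe 2 gave -0.79, -0.98, -1.12 and -0.82, a mean of -0.93 ± 0.15 (SD, n = 4), from signals of 32.3 to 44.6, and was well above background on all 4 arrays. Replicate 2 was highest by the first probe, and replicate 1 by the second.

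The 2 TOLLIP probes deviated in opposite directions on 4 of 4 arrays, by less than 0.01 for probe 1 on replicate 3, and in their median these deviations partly cancelled. The gene summary was 2.96, 2.95, 2.80 and 2.87, or 2.90 ± 0.07 (SD, n = 4), with a span of 1.11-fold. Only 4.05% of all detected genes had a smaller SD. Each TOLLIP probe by itself differed more between arrays, with spans of 1.24-fold and 1.26-fold.

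WDFY3 was read by 2 probes that lie far apart in the gene. WDFY3 probe 1 gave 2.00, 2.02, 2.55 and 2.03 on replicates 1 to 4, a mean of 2.15 ± 0.27 (SD, n = 4). Replicates 1, 2 and 4 agreed within 1.02-fold and replicate 3 lay above them, which brought the span to 1.46-fold. WDFY3 probe 2 gave 0.20, 0.33, 0.75 and 0.25, a mean of 0.38 ± 0.25 (SD, n = 4), again with replicate 3 on top. The probes deviated in the same direction on 4 of 4 arrays, and the ratio between them spanned 1.08-fold (1.38-fold for the TOLLIP probes). The gene summary was 1.10, 1.17, 1.65 and 1.14, or 1.26 ± 0.26 (SD, n = 4). Dixon's ratio, the gap of the farthest array to its neighbour over the whole range, was 0.860 for WDFY3 and passed its critical value for 4 arrays; this held for 1 of 7 receptor genes and for 8.48% of all detected genes. By probe the ratio was 0.951 for WDFY3 probe 1 and 0.761 for probe 2, and 1 of the 9 detected receptor probes passed, against 7.3% of all detected probes. The ratio of the gene summary no longer passed with other scalings, at 0.681 with the software's processed signal, 0.743 after normexp background correction with quantile normalization, 0.688 with centring on probes of the same G and C number and 0.609 with the array median taken over all probes, those at or below 0 included.

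Over the 7 receptor genes the median SD was 0.23, beside 0.21 over the 19083 detected genes. The highest and the lowest array lay more than 1.4-fold apart, the fold the study's methods use for a changed gene, in 4 of 7 receptors, SQSTM1, OPTN, CALCOCO2 and WDFY3. The same held for 46.4% of all detected genes. By probe it held for 5 of the 9 detected receptor probes, those of SQSTM1, OPTN, CALCOCO2 and WDFY3, against 43.5% of detected probes. The study applies the 1.4-fold limit to ratios of aneuploid to diploid lines, after a median over replicates. A span between single arrays is a different measure. The SD of SQSTM1 exceeded that of 57.5% of detected genes, and the figures were 63.5% for OPTN, 57.2% for CALCOCO2 and 64.4% for WDFY3, against 27.4% for NBR1 and 20.7% for TAX1BP1. With replicate 3 left out, 0 of 7 receptors and 21.6% of detected genes spanned more than 1.4-fold. For scale, the SD of the log2 signals of spots of 1 probe on 1 array had a median of 0.18 over 673 detected probes that were printed 10 times, and the error the scanner software gave for the 9 detected receptor probes was between 10.0% and 16.3% of the signal.

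**Figure D2:**
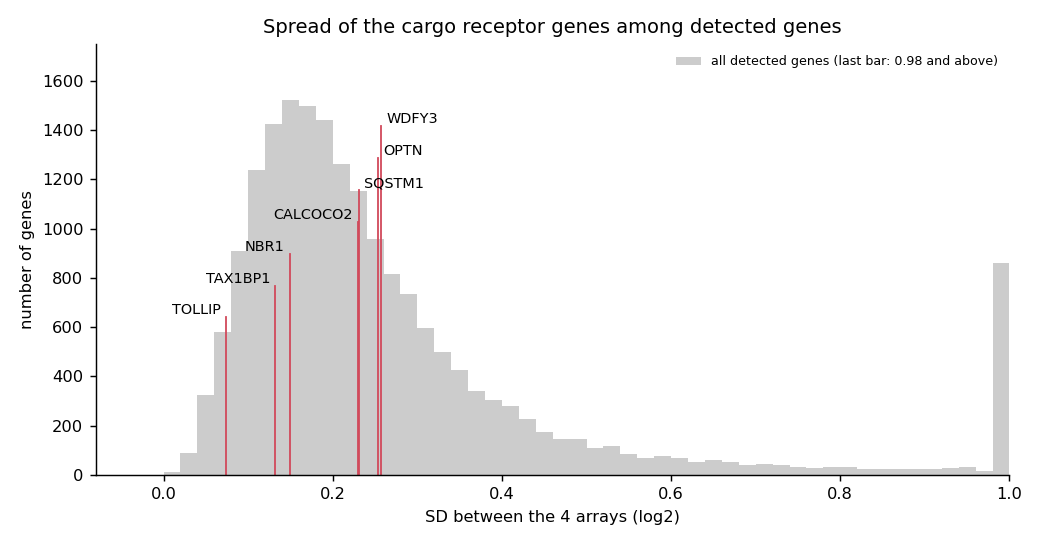
Histogram of the SD between the 4 arrays (horizontal axis, log2) over all detected genes (vertical axis, number of genes), with a red line for each receptor gene; line heights only separate the names. TOLLIP sits in the lower tail, and CALCOCO2, SQSTM1, OPTN and WDFY3 lie between 0.23 and 0.26, to the right of the peak.

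Replicate 3 was the highest array for OPTN, CALCOCO2 and WDFY3, 3 of 7 receptor genes, and for 48.5% of all detected genes. It was the lowest array for SQSTM1 and TOLLIP, as for 23.2% of detected genes. For TOLLIP this came from the dim probe 2, since probe 1 was lowest on replicate 4. The number highest on replicate 3 was 4 with detected probes only and 2 with centring on probes of the same G and C number. The shares of all detected genes were not computed for these settings. Detected genes as a whole were not level between arrays with the array median as the centre. Their median deviation from the 4-array mean was -0.03, 0.03, 0.10 and -0.10 on replicates 1 to 4. Ratios between receptors on the same array do not depend on any single centre subtracted from all probes of the array. Among the 21 pairs of receptors, each read by its brightest probe, the ratio of SQSTM1 to WDFY3 differed most between arrays, by 2.11-fold, followed by SQSTM1 to OPTN with 1.97-fold, SQSTM1 to CALCOCO2 with 1.90-fold and SQSTM1 to NBR1 with 1.63-fold. In all 4 of these pairs the ratio was lowest on replicate 3. The ratio of OPTN to WDFY3 differed least, by 1.07-fold, and that of TAX1BP1 to TOLLIP by 1.09-fold. In all, 9 of the 21 ratios spanned more than 1.4-fold, each with replicate 3 farthest from the mean of the pair, and without replicate 3 the largest span was 1.27-fold. With centring on probes of the same G and C number, which can change these ratios, 4 of the 21 spanned more than 1.4-fold, all with SQSTM1; the ratio of SQSTM1 to WDFY3 then spanned 1.74-fold and that of SQSTM1 to OPTN 1.57-fold. The pairs share genes and arrays, and these ratios are a description of 4 arrays.

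Probes of different base composition deviated differently on replicate 3. There, the median deviation of detected probes from their 4-array mean was 0.27 for probes with 21 G or C bases, as in OPTN and CALCOCO2, and 0.23 and 0.17 for those with 22 and 24, as in the WDFY3 probes. For probes with 25 G or C bases, as in TAX1BP1, the median was 0.15, and for those with 15, as in TOLLIP probe 2, it was 0.35 over 55 probes. For probes with 27 G or C bases, as in NBR1, it was 0.07, and for those with 31, as in SQSTM1, it was -0.02; with 32, as in TOLLIP probe 1, it was -0.06. CALCOCO2 deviated by 0.27 on replicate 3, the same as the probes of its composition. OPTN deviated by 0.37, WDFY3 probe 1 by 0.40 and WDFY3 probe 2 by 0.37, above the median of their composition, and NBR1 probe 1 by 0.19, also above it. SQSTM1 deviated by -0.32, TOLLIP probe 2 by -0.19 and TAX1BP1 by 0.08, all below theirs. The part of base composition in these differences was not tested.

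**Figure D3:**
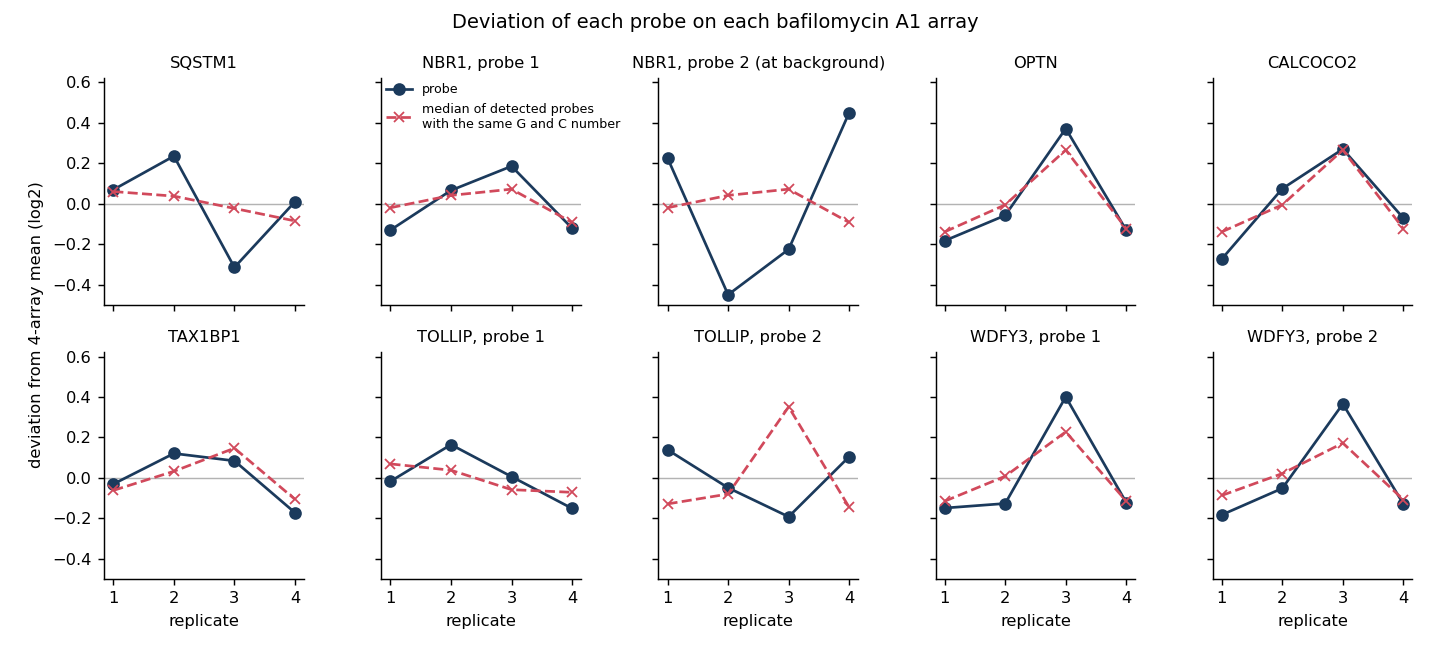
Deviation of each receptor probe from its 4-array mean (vertical axis, log2) on replicates 1 to 4 (horizontal axis; lines only join the points of a probe), with the median deviation of all detected probes of the same G and C number in red. CALCOCO2 lies on the red median of 0.27 on replicate 3, SQSTM1 falls to -0.32 where the median is -0.02, and TOLLIP probe 2 runs opposite to a median that rests on 55 probes.

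The number of receptors spanning more than 1.4-fold was lower with 3 other scalings, as was the share of all detected genes. It was 2 of 7 with the software's processed signal, against 39.1% of detected genes, 1 of 7 after normexp background correction and quantile normalization, against 15.5%, and 2 of 7 when each array was centred on detected probes of the same G and C number, against 37.4%. SQSTM1 was among them each time, and the second receptor, where there were 2, was NBR1. The span of NBR1 came from its undetected probe, since probe 1 alone spanned 1.20-fold with the processed signal and 1.17-fold with composition centring. With the array median over all probes, those at or below 0 included, 4 of 7 receptors spanned more than 1.4-fold, against 51.4% of detected genes, with NBR1 in place of SQSTM1. There too NBR1 passed only through its undetected probe.

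With centring on probes of the same G and C number, a choice made after seeing the data, the deviation on replicate 3 was -0.29 for SQSTM1, 0.11 for OPTN, 0.00 for CALCOCO2, 0.17 for WDFY3 probe 1 and 0.19 for WDFY3 probe 2. TOLLIP probe 2 deviated most of the detected receptor probes, by -0.54, and the centre for its G and C number rested on 55 probes. For SQSTM1, replicate 3 was the lowest array under each of 4 scalings, with deviations of -0.41 for the software's processed signal, scaled to the 75th percentile of each array, and -0.47 after normexp correction with quantile normalization. OPTN and both WDFY3 probes were highest on replicate 3 under all 4, with smaller deviations after normexp correction with quantile normalization, 0.20 for OPTN and 0.26 and 0.19 for the WDFY3 probes. NBR1 probe 1 deviated by 0.19 with the array median and by 0.01 after normexp correction with quantile normalization. For TAX1BP1 the sign of the deviation on replicate 3 changed with the scaling, from 0.08 with the array median to -0.09 after normexp correction with quantile normalization, and for TOLLIP probe 1 it ran from 0.06 with composition centring to -0.17 after the same normexp and quantile steps.

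**Figure D4:**
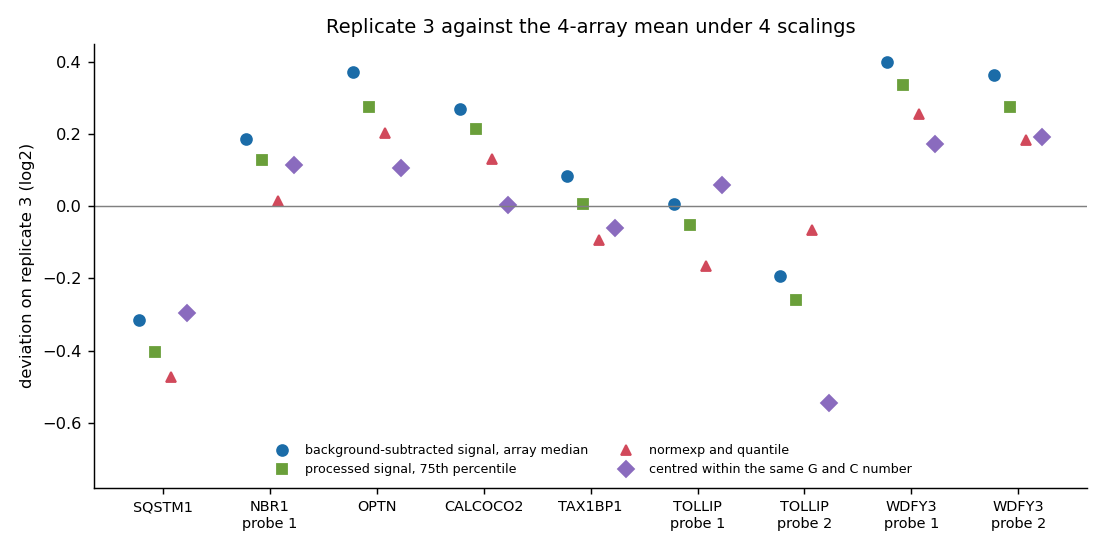
Deviation of the 9 detected receptor probes on replicate 3 from their 4-array mean (vertical axis, log2), with 1 symbol for each of 4 scalings. SQSTM1 lies between -0.29 and -0.47 under all 4, while OPTN, CALCOCO2 and the WDFY3 probes lie above 0 by amounts that differ with the scaling. The lowest point is TOLLIP probe 2 at -0.54 with composition centring.

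The genes around these receptors were read from lists of other selective autophagy receptors, of partners of the receptors and of the ATG8 family to which they bind. Of 20 other receptors, which act mostly on mitochondria and endoplasmic reticulum, 18 were detected on all 4 arrays, their median SD was 0.16 and 6 spanned more than 1.4-fold. The largest SDs belonged to NCOA4, the ferritin receptor, with 1.44, YIPF4, a Golgi receptor, with 0.58, and TEX264, an endoplasmic reticulum receptor, with 0.40. YIPF4 gave 1.60, 2.14, 2.97 and 1.97, with replicate 3 highest, and TEX264 gave 4.07, 4.15, 3.28 and 3.70, with replicate 3 lowest. The smallest were those of BCL2L13 with 0.08, YIPF3 with 0.09 and PHB2 with 0.09.

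NCOA4 was read by 2 probes of which 1 was detected, and on replicate 3 the spot of the other was marked as an outlier and left out. Its summary of 5.91, 6.06, 8.80 and 5.83 therefore rests on 2 probes on 3 arrays and on 1 probe on replicate 3. The detected NCOA4 probe alone had an SD of 0.21. NCOA4 was counted by this summary among the 6 other receptors that spanned more than 1.4-fold.

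Of 21 partners, 17 were detected, their median SD was 0.20 and 5 spanned more than 1.4-fold. NFE2L2, the transcription factor NRF2 that is released when SQSTM1 binds KEAP1, was well above background on no array with the 1 probe it had. TBK1, the kinase that phosphorylates OPTN and SQSTM1, gave 3.28, 3.60, 4.29 and 3.52, an SD of 0.43, with replicate 3 highest. PRKCI, an atypical protein kinase C of the class that binds SQSTM1, gave 3.73, 3.99, 4.75 and 3.98, an SD of 0.44, with replicate 3 again highest. LGALS8, the galectin that CALCOCO2 binds, had an SD of 0.49 over its 2 probes, of which 1 was detected. The detected LGALS8 probe alone had an SD of 0.19. LGALS8 was counted by the summary of both probes among the 5 partners that spanned more than 1.4-fold. UBB, a ubiquitin gene, and RIPK1, a kinase of death receptor signalling, were among the partners that differed least, each with an SD of 0.12.

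Of the ATG8 family, 7 genes were listed, 6 were found by symbol and 4 were detected. Their SDs were 0.19 for MAP1LC3B, 0.12 for GABARAPL1, 0.10 for GABARAPL2 and 0.09 for GABARAP, and 0 of the 4 spanned more than 1.4-fold. MAP1LC3C was well above background on no array. These lists share the 4 arrays with the receptors, and their counts stand beside the 46.4% of all detected genes that spanned more than 1.4-fold.

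Promoters of 6 receptors were looked up in RefSeq sequences of GRCh38.p14 that run from 250 bases before to 50 after a transcript start, 12 sequences in all; WDFY3 was not among them. The 6 letters CACGTG, the E-box read by TFEB and TFE3, which switch on lysosomal genes, occurred in 0 of the 12, against 7.26% of 35116 promoters. The same E-box with GT before it and AC after it, the CLEAR element, occurred in 0 of 12, against 0.353%. The letters TGACNNNGC, the core of the antioxidant response element read by NRF2, occurred on either strand in 2 of 12, those of CALCOCO2 and TOLLIP, against 13.3% of all promoters. A match is a run of letters in this window and no evidence of binding. At shares this low, 0 of 12 sequences is a common outcome, and the 12 come from only 6 genes. Sequence outside the window was not searched, so a count of 0 does not show that a gene lacks the site.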

How the data were processed

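Total RNA of 4 bafilomycin A1-treated HCT116 H2B-GFP samples was labelled with Cy3 and hybridised to Agilent arrays, 1 sample per array. The authors deposited 1 scanner file per array, made with Agilent Feature Extraction 10.7.3.1 according to the submitters' processing notes. The deposited intensity values are linear, with the background subtracted by this software and no normalization between arrays. For each spot the deposited files also hold a p-value against background, not used here, and flags that mark it as saturated, as an outlier or as well above background.

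Spots of controls and outlying spots were dropped, the remaining spots of each probe averaged, and signals at or below 0 dropped on the array concerned. Following the study's methods, log2 signals were centred on the array median over non-control probes, and each gene was summarised by the median of its probes. Means with SDs are given here where the methods take the median over replicates. Detection of a probe on an array required over 50% of its spots to be well above background. The spread between arrays was described by the SD, the span between the highest and the lowest array and Dixon's ratio. The number of arrays limits the precision. The SD and Dixon's ratio were tested on simulated data, and the span was not. The simulated shift was larger than any difference between arrays in the receptor genes.

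Groups came from the sample labels, and with 1 group analysed no comparison between groups was made. The members and gene lists were chosen with earlier results of these data known. Named genes are the members and, of each list, those well above background on no array and the 3 detected genes with the largest and the 3 with the smallest SD, of which 1 is not reported here; of the cell type markers only counts and a single absent marker are given.

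The alternatives tried were the processed signal scaled to the array's 75th percentile, normexp correction (offset 50) with quantile normalization in limma 3.58.1, a median over all probes with those at or below 0 counted as lowest, other rules for probes, detection and outliers, and leaving out each array. Centring within probes of the same G and C number, for numbers held by at least 50 detected probes, was added after seeing the data. Changes in levels were compared with the SD between arrays, changes in SDs with the SD of the leave-one-out values, and counts with a limit of 1.5-fold. Computations ran in R 4.3.3 and in Python 3.11.15 (pandas 2.3.3, numpy 2.4.6, matplotlib 3.10.9, scipy 1.17.1).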

Additional observations from a re-analysis of the deposited data

Results flagged for a closer look

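Dixon's ratio for 4 values was computed for 52 values, those of the 7 receptor genes, of the 6 probes of NBR1, TOLLIP and WDFY3 and of the 39 detected genes on the lists of receptors, partners and ATG8 proteins. In 4 of them 1 array lay apart from the other 3. Chance flags about 5% of such values. On these arrays 8.48% of all detected genes and 7.3% of all detected probes passed, so 4 of 52 is near the background. The 52 values are not independent, since NBR1, TOLLIP and WDFY3 enter both as genes and as probes. Both WDFY3 and its probe 1 are among the 4, so the comparison with these shares is only rough. In WDFY3, replicate 3 lay above the others with a ratio of 0.860 for the median over probes and of 0.951 for probe 1. Probe 2 of WDFY3 had a ratio of 0.761. In NCOA4, replicate 3 lay above the others with a ratio of 0.922, on the array on which 1 of its 2 probes had no value. In GABARAPL1, a member of the ATG8 family, replicate 4 lay below the others, with 5.27, 5.26, 5.24 and 5.02 on replicates 1 to 4 and a ratio of 0.896. The cause of these differences was not tested.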

How the results depend on the processing

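All 7 receptors were detected under every detection rule tried and with any 1 array left out. Most of these alternatives could not have lowered the number. They asked for fewer arrays than the rule above, or kept outlying spots, of which the receptors had none. The number spanning more than 1.4-fold, 4 in the analysis above, was 2 with the processed signal (SQSTM1 and NBR1), 1 after normexp correction and quantile normalization (SQSTM1) and 2 with composition centring (SQSTM1 and NBR1, the higher at 1.41-fold), and with 1 array left out it ran from 0 without replicate 3 to 4 without replicate 4. With the median over all probes it was again 4, but NBR1 at 1.46-fold took the place of SQSTM1 at 1.37-fold. With the processed signal, composition centring and the median over all probes alike, NBR1 passed only through its probe 2, which was well above background on no array. The median SD of 0.23 became 0.14 after normexp correction with quantile normalization and 0.13 with composition centring, and ran from 0.12 without replicate 3 to 0.28 without replicate 4. The number with 1 array apart by Dixon's ratio was 0 with the processed signal, 0 after normexp correction with quantile normalization and 0 with the median over all probes, against 7.16%, 7.15% and 6.53% of detected genes, and with composition centring it was 1, which was TOLLIP and not WDFY3, against 7.48%. Neither TOLLIP probe passed by itself with composition centring, at 0.292 for probe 1 and 0.708 for probe 2. Dixon's ratio was not computed with 1 array left out, since 3 values are too few. Of the SDs of single receptors under alternatives other than leaving out an array, 49 moved by less than the spread and 14 by more; with 1 array left out these numbers were 22 and 6. Levels of single receptors moved by less than the spread in 32 cases and by more in 24, and in 28 cases and none (0) with 1 array left out. Leaving out 1 of 4 arrays cannot move their mean by as much as their SD, so the last counts were fixed in advance. Part of the 49 SDs and 32 levels that moved by less than the spread was fixed as well. No receptor had more than 2 probes, so averaging the probes gave the same summary as their median. No receptor probe lacked a signal on any array, so excluding incomplete probes changed no receptor. Receptors with 1 probe could not respond to any rule for choosing probes. Keeping outlying spots altered only the array centre for the receptors. A scaling with another centre shifts all levels of an array. The level of SQSTM1 was 8.80 above, 6.69 with the processed signal and 9.89 with the median over all probes. The level of NBR1 was 6.62 with only its detected probe and 2.15 with both. No paired analysis was possible because only 1 group of samples was analysed. The cause of these changes was not tested. Each receptor probe was 1 spot per array, and NBR1 probe 2 and TOLLIP probe 2 were close to background, where the relative error is largest.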
